A study of Mus musculus with 8 samples.

Results

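Induced pluripotent stem cells (iPSC) were compared with Sertoli cells (SC) of the testis, both mouse and both of the C57BL/6 strain. The comparison used 4 of the 8 libraries of the series, 1 RNA-seq and 1 m6A-seq library from each of these cell types, chosen by their labels. The other libraries came from embryonic stem cells (ESC) and neural stem cells (NSC). The iPSC were at passage 22 and grew in DMEM with 20% serum replacement (KOSR) and leukemia inhibitory factor at 1000 units per ml, a cytokine that holds mouse stem cells in the pluripotent state. The SC were at passage 2 and grew in DMEM with 10% fetal bovine serum (FBS). Cell type, passage and medium therefore changed together and cannot be told apart. The sources used here do not give the cell of origin of the iPSC, the factors used to make them, or the number of clones or animals behind a library. mRNA was broken into pieces of about 100 nt, and for m6A-seq the pieces were enriched with an antibody against N6-methyladenosine (m6A). The deposited table lists 19776 RefSeq transcripts, of which 10877 stood at 1 FPKM or more (fragments scaled to transcript length and to library size) in both cell types. These 10877 transcripts, from 9402 genes, were used to compare m6A calls, and 10552 of them were coding. Each cell type had 1 library for each assay, so no difference below has a replicate check and no p-value was computed.

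m6A is a methyl mark placed on adenosines inside mRNA by a writer complex around Mettl3 and Mettl14. The demethylases Fto and Alkbh5 can remove it, and proteins with a YTH domain bind it and alter the splicing, translation or decay of the message. The mark is known to gather near stop codons and in 3' UTRs, at sites with the core letters GGAC, and in pluripotent cells it is known to shorten the life of transcripts that keep the cells pluripotent. Sertoli cells are the somatic nurse cells of the seminiferous tubule; they secrete inhibins, anti-Müllerian hormone and carrier proteins, build the blood-testis barrier and engulf dying germ cells.

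The expression columns were not on one total. FPKM summed to 394600 over all transcripts of the table in iPSC and to 818860 in SC. Over the 9335 genes at 1 FPKM or more in both the median log2 ratio of iPSC to SC was -0.997. Values below are as deposited, with the count after scaling by that median ratio given where it matters. Genes at 100 FPKM or more numbered 536 in iPSC and 1278 in SC. Exactly 0 was listed for 191 genes in iPSC and 694 in SC, and a listed 0 may reflect an estimate that failed or reads that were given to another isoform. In bulk RNA, fewer cells of a type and less RNA per cell cannot be told apart.

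The pluripotency and Sertoli markers Utf1 and Inha stood high in the library of that name and low in the other. Utf1 (NM_009482), a chromatin-bound factor of pluripotent cells, stood at 241 FPKM in iPSC and 0.0620 in SC. Inha (NM_010564), the inhibin alpha subunit secreted by Sertoli cells, stood at 0.508 FPKM in iPSC and 719 in SC. Acta2 (NM_007392), smooth muscle actin, is a gene of smooth muscle and peritubular myoid cells rather than of Sertoli cells in the testis; it stood at 18.8 FPKM in iPSC and 1795 in SC. Other Sertoli regulators were high in SC, with Gata4 at 176 FPKM, Sox9 at 106 and Wt1 at 105, against 0.589, 0.126 and 2.23 in iPSC. Amh, the anti-Müllerian hormone of the immature Sertoli cell, was low, at 3.32 FPKM in SC and 0.299 in iPSC. Fshr and Rhox5 were not analysed here.

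Markers of other testis cells were mixed in SC. Of peritubular myoid and smooth muscle genes, 13 of 14 were at least 2-fold higher in SC, and the whole list summed to 136 FPKM in iPSC and 7686 in SC, with none listed at 0. The more specific muscle genes were low, Myh11 at 1.66 FPKM in SC, Cnn1 at 3.16 and Des at 11.6. The fibroblast list summed to 254 FPKM in iPSC and 10291 in SC, and most of the SC sum came from the broadly expressed genes Sparc, at 6204 FPKM, and Vim, at 3438. Fbln1, Pdgfrb, Postn, Twist2, Prrx1 and Ddr2 were under 1 FPKM in SC, where the matrix gene Dcn stood at 63.4 FPKM but the receptor gene Pdgfra at 0.568 and Thy1 at 0.521. The steroid list summed to 28.7 FPKM in iPSC and 321 in SC. Star, which carries cholesterol into mitochondria, stood at 56.0 FPKM in SC and Cyp11a1, the first enzyme of steroid synthesis, at 46.3, while the Leydig cell hormone gene Insl3 stood at 0.903 and Hsd3b1 at 0.972. Most germ cell and blood markers were low in SC, Ddx4 at 0.741 FPKM, Dazl at 0.235, Csf1r at 2.16 and Pecam1 at 0.364, and Sycp3 and Adgre1 were listed at 0. The exceptions were Uchl1, a gene of spermatogonia and neurons, at 649 FPKM in SC and 67.4 in iPSC, which made up most of the germ cell list's sum of 652 in SC against 235 in iPSC, and Lyz2, a lysozyme gene of macrophages, at 5.11 in SC and 12.3 in iPSC. The blood and endothelial list summed to 34.3 FPKM in iPSC and 11.1 in SC. The part that other testis cells play in the SC values was not tested.

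Expression differed widely between the cell types. Of 12562 genes at 1 FPKM or more in either library, 1650 (13.1%) were at least 2-fold higher in iPSC and 5980 (47.6%) at least 2-fold higher in SC on the log2(FPKM + 1) scale, which understates the difference of low genes. Counts of list members, above and below, are to be read against these shares. A member under 1 FPKM in 1 library entered through the other. The median log2 difference over the 12562 genes, iPSC minus SC, was -0.92. After scaling by the median ratio 3171 genes were higher in iPSC and 3451 in SC, so the split depended on the scaling: iPSC held 21.6% of the differing genes as deposited and 47.9% after scaling. Pearson's r of the log2 values across these genes was 0.61, as a description, since genes are not independent replicates.

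**Figure D1:**
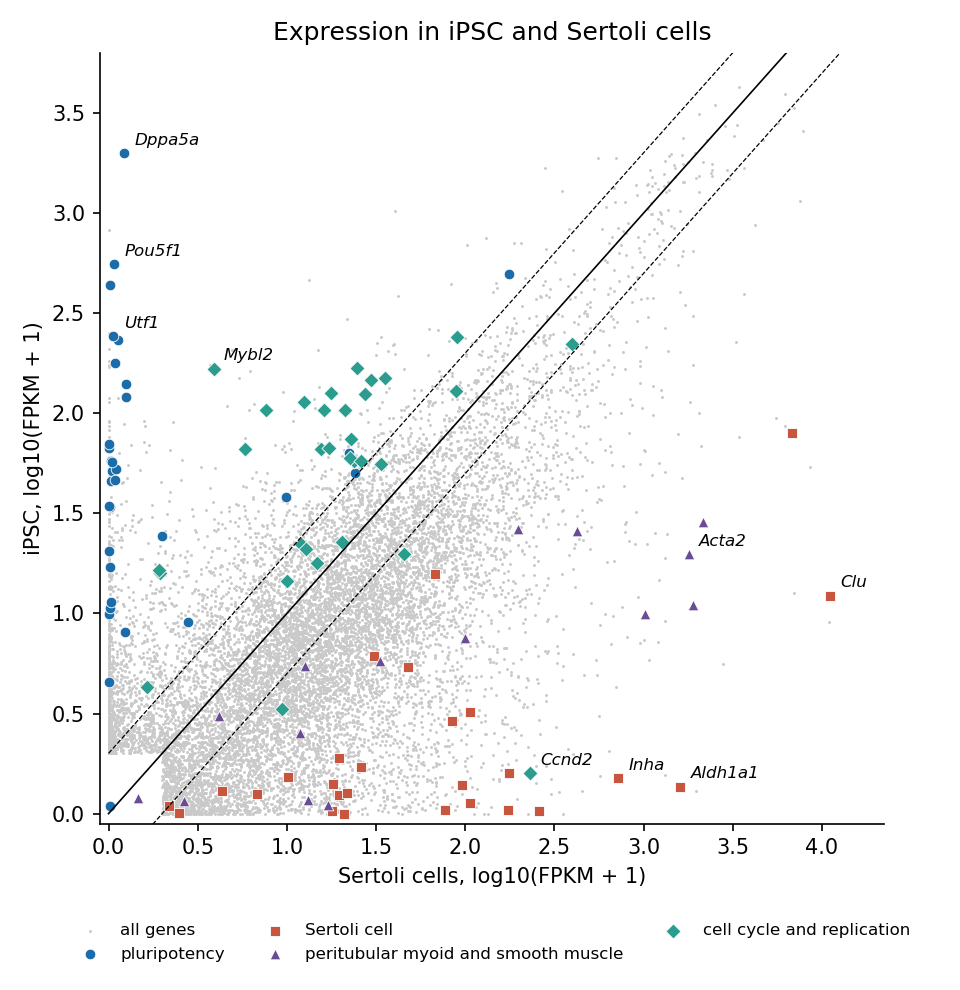
Each point is 1 gene, with log10(FPKM + 1) in Sertoli cells across and in iPSC upwards, both on a log scale; the solid line marks equal values and the dashed lines 2-fold. Most pluripotency genes lie along the left edge, Sertoli and smooth muscle genes in the lower right, and most cell cycle genes above the upper dashed line.

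Among the largest differences towards iPSC, Dppa5a, an RNA-binding protein of early embryos, stood at 1986 FPKM in iPSC and 0.227 in SC. Pou5f1, which encodes OCT4, stood at 554 FPKM in iPSC and 0.0761 in SC, a log2 difference of 9.01. Tdgf1, the Nodal co-receptor, stood at 439 and 0.0214 FPKM, and Nanog at 232 and 0.137. Dnmt3l, a cofactor of the de novo DNA methyltransferases, stood at 177 and 0.0860 FPKM, and Tex19.1, a restrainer of transposons, at 118 and 0.127. All 31 pluripotency genes at 1 FPKM or more in either library were at least 2-fold higher in iPSC, but only 5 of them reached 1 FPKM in SC, so the others entered through iPSC. Trim28, Klf2, Klf4 and Klf5 were also well expressed in SC, at 174, 23.1, 21.2 and 8.92 FPKM against 493, 49.5, 62.1 and 37.2 in iPSC.

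Several genes near the top of this order owe their place to a value of 0. Hnrnpa1, Rps27 and Ash2l were listed at 0 FPKM in SC for the transcript used, although they are common to most cells. Summed over transcripts, Hnrnpa1 stood at 247 FPKM in iPSC and 69.6 in SC, Rps27 at 183 and 10.99, and Ash2l at 127 and 39.3. On the SC side Rpl34 was listed at 0 in iPSC and summed to 48.4 FPKM there and 400 in SC. Suz12, a Polycomb subunit, was listed at 0 in SC and summed to 51.7 FPKM in iPSC and 6.65 in SC.

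Among the largest differences towards SC, Clu (clusterin), a chaperone found outside cells, stood at 11.3 FPKM in iPSC and 11071 in SC, a ratio of 984. The glutathione transferase genes Gstm2 and Gstm1, close relatives whose reads may be hard to assign, stood at 8.06 and 11.6 FPKM in iPSC and at 10949 and 6962 in SC. Aldh1a1, which makes retinoic acid, stood at 0.366 and 1609 FPKM. The chemokine gene Ccl17 stood at 0.305 and 1960 FPKM, the protease-like Prss35 at 0.560 and 1321, Tinagl1, a matrix protein, at 4.59 and 2791, and the creatine synthesis enzyme Gatm at 1.05 and 637. All 27 Sertoli genes measured were at least 2-fold higher in SC, and 26 after scaling, but only 7 of them reached 1 FPKM in iPSC, so the count says little of the others. The barrier claudin Cldn11 belonged to this group, at 0.0344 FPKM in iPSC and 257 in SC.

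Several of these genes carried m6A calls. The letters GGACT, one form of the m6A core, lay within 100 nt of the stop codon in a few of them, and these stretches are shown because each belongs to a transcript that was called in the cell type that expresses it. They were read from GENCODE M21 transcripts, 5′ to 3′ on the coding strand, with GGACT in capitals. Utf1 lies on chromosome 7, Tdgf1 and Prss35 on chromosome 9 and Tex19.1 on chromosome 11. GGACT started 13 nt before the first base of the stop codon in Utf1, 77 nt before it in Tdgf1, 91 nt before it in Prss35 and 50 nt after it, in the 3' UTR, in Tex19.1.
Utf1: gcatccttggGGACTtgcgccaata
Tdgf1: aaagcatccgGGACTccgtgtcaaa
Tex19.1: agggccctggGGACTgtgaagagca
Prss35: gagttcagaaGGACTataacgtggc
Utf1 and Tex19.1 were called in CDS and TsTS in iPSC, Tdgf1 in the 3' UTR in iPSC, and Prss35 in CDS, TsTS and 3' UTR in SC. Pou5f1, Nanog and Dnmt3l were called in CDS and TsTS in iPSC without these letters in the window. Ccl17, Aldh1a1, Gstm1 and Tinagl1 were called in TsTS in SC, also without them. Dppa5a, at the highest level of the genes named as higher in iPSC, carried no call in iPSC.

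Adhesion genes split by type. Of 20 epithelial adhesion genes, 10 were at least 2-fold higher in iPSC and 6 in SC. Cdh1, which encodes E-cadherin, stood at 57.5 FPKM in iPSC and 0.0794 in SC, Epcam at 85.2 and 0.592, and Cldn6 at 22.4 and 0.143, whereas Cldn3, a claudin of the blood-testis barrier, stood at 2.73 and 85.0. Of 22 genes of the mesenchymal switch and TGF-beta signalling, 18 were higher in SC and none in iPSC. Cdh2, which encodes N-cadherin, stood at 0.661 FPKM in iPSC and 157 in SC, the ligand gene Tgfb3 at 0.290 and 66.1, and the metalloprotease inhibitor genes Timp2 and Timp3 at 2.92 and 1.71 in iPSC and at 282 and 323 in SC. The transcription factors named for the switch differed less: Snai1 stood at 2.25 FPKM in iPSC and 2.50 in SC, Snai2 at 0.293 and 1.52, and Zeb1 at 1.74 and 6.38. Of 20 collagen and basement membrane genes 16 were higher in SC, among them Col4a1 at 6.10 and 950 FPKM and Col4a2 at 3.29 and 700. The laminin chain Lama1 stood at 5.85 and 5.25 FPKM and Lama5 at 17.2 and 11.2. Of 16 junction genes of Sertoli cells 9 were higher in SC, where 47.6% of all genes were higher too. F11r stood at 22.5 and 431 FPKM and Cgn, the cingulin gene, at 5.36 and 94.6. The gap junction gene Gja1 was the 1 member higher in iPSC, at 19.2 FPKM against 7.14; after scaling 4 members were higher in iPSC and 8 in SC, and the list's median moved from -1.56 to -0.65.

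Genes of division stood higher in iPSC. Of 32 cell cycle and replication genes 21 were at least 2-fold higher in iPSC and 3 in SC, and after scaling 28 and 1. Mybl2, a transcription factor of proliferating cells, stood at 166 FPKM in iPSC and 2.88 in SC. The cyclin E gene Ccne1 stood at 103 and 6.599 FPKM and the replication licensing gene Cdt1 at 65.3 and 4.82. Ccnd2, a D-type cyclin, ran the other way, at 0.597 FPKM in iPSC and 230 in SC. Of 19 cell cycle inhibitors and p53 targets 12 were higher in SC and 1 in iPSC, against 47.6% and 13.1% of all genes. After scaling the list's counts were 8 and 2. The inhibitor gene Cdkn2b stood at 1.42 FPKM in iPSC and 164 in SC, Cdkn1a, which encodes p21, at 22.3 and 458, and Btg2 at 9.83 and 217. Trp53 itself stood at 121 and 115 FPKM.

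Chromatin regulators leaned towards iPSC, with 14 of 21 Polycomb and DNA methylation genes higher there and 4 higher in SC. Dnmt3b, a de novo DNA methyltransferase, stood at 25.7 FPKM in iPSC and 0.187 in SC, and Phc1, a Polycomb subunit, at 74.3 and 4.85. Tet1, a methylcytosine oxidase, stood at 14.4 FPKM in iPSC and 3.5e-05 in SC, and its relative Tet3 at 0.477 and 7.58. Of 11 germ cell genes 9 were also higher in iPSC. Only Nanos3 and Uchl1 of the 11 reached 1 FPKM in SC, so the 9 entered through iPSC and their count says little. Stra8, the retinoic acid target that opens meiosis, stood at 68.2 FPKM in iPSC and 0.339 in SC, Dazl, an RNA-binding protein, at 26.8 and 0.235, and Mael, a piRNA factor, at 22.2 and 0.0541. Lysosome and phagocytosis genes were the reverse, with 20 of 22 higher in SC and none in iPSC. Gas6, the bridge to dying cells, stood at 3.92 FPKM in iPSC and 550 in SC, and its receptor gene Axl at 0.800 and 125.

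Few genes of the m6A machinery passed 2-fold. Of 21 writers, erasers and readers, 1 was at least 2-fold higher in iPSC and 3 in SC. The exception on the iPSC side was Igf2bp1, a reader that stabilises its targets, at 28.1 FPKM in iPSC and 0.485 in SC. Zc3h13 and Virma, subunits of the writer complex, stood at 4.83 and 6.49 FPKM in iPSC and at 15.5 and 17.02 in SC, and the demethylase gene Fto at 11.1 and 31.8. These 3 were under 2-fold after scaling, when 7 members were higher in iPSC and none in SC. The catalytic subunit gene Mettl3 stood at 12.1 FPKM in iPSC and 20.7 in SC, its partner Mettl14 at 10.8 and 9.42, and the reader gene Ythdf2 at 23.002 and 22.8. The median log2 difference of the list was -0.26 as deposited and 0.69 after scaling, so its direction rests on the scaling.

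Glycolysis, imprinted and microRNA pathway genes held members on both sides. Slc2a3, the glucose carrier GLUT3, stood at 206 FPKM in iPSC and 3.90 in SC, whereas the lactate dehydrogenase gene Ldhb stood at 54.6 and 950. Of 22 glycolysis genes 6 were higher in iPSC and 10 in SC, against 13.1% and 47.6% of all genes. After scaling the list's counts were 7 and 4. Among imprinted genes Slc38a4 stood at 54.0 and 0.285 FPKM and Phlda2 at 44.4 and 0.211, while Gnas stood at 24.5 and 787 and Ndn at 3.75 and 92.0. In the microRNA pathway Lin28a, which blocks let-7 maturation, stood at 56.8 FPKM in iPSC and 0.0300 in SC and Trim71 at 9.71 and 0.0337, and the processing enzymes were close, Dicer1 at 7.87 and 10.2 and Drosha at 30.9 and 15.7. The medians of these 3 lists were -0.90, -0.06 and -0.16, and 0.10, 0.84 and 0.64 after scaling.

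**Figure D2:**
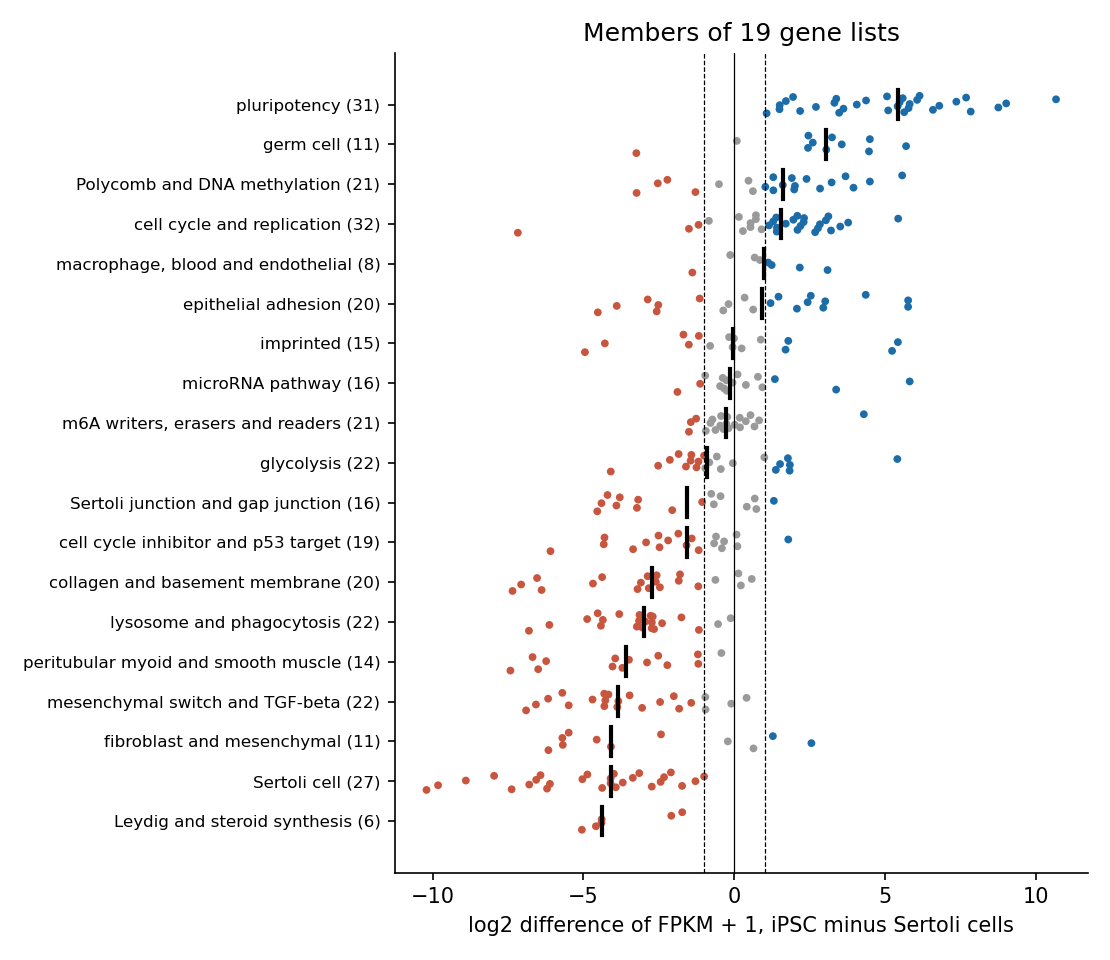
Each dot is 1 gene at 1 FPKM or more in either library, placed by its log2 difference of FPKM + 1 (iPSC minus Sertoli cells), with the number of genes after each list's name; black bars are medians and dashed lines mark 2-fold. The pluripotency list lies wholly to the right and the Sertoli list wholly to the left, with the m6A list centred near 0.

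The m6A data are yes or no calls for 5 regions of each transcript, named TcSS, 5' UTR, CDS (coding sequence), TsTS and 3' UTR in the headers. TcSS and TsTS are not spelled out there, so the names are kept; TsTS stands between CDS and 3' UTR. Calls carry no height, and how strongly a region was methylated cannot be read from them. The 325 non-coding transcripts at 1 FPKM or more in both carried no call in either library. Calls were also listed for some transcripts with no measured expression: 154 of 467 coding transcripts listed at 0 FPKM in iPSC (33.0%) and 143 of 989 in SC (14.5%) were called, which is one reason to compare calls over expressed transcripts.

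Calls did not group the libraries by cell type, at the start of transcripts or in the other regions. Over the 9339 transcripts at 1 FPKM or more in all 4 cell types, iPSC and SC differed in the TcSS call at 19.9% of transcripts, ESC and iPSC at 22.4%, ESC and SC at 16.4% and iPSC and NSC at 11.3%. In the 5' UTR the same pairs differed at 5.02%, 5.10%, 3.87% and 2.96%. Over the 3116 transcripts at 10 FPKM or more in all 4, the TcSS values were 22.6%, 30.6%, 23.2% and 11.6%. These pairs share libraries and are not independent. Of these 4 pairs iPSC and NSC differed least in TcSS. In TcSS iPSC also differed more from the other pluripotent library than from SC over both sets of transcripts. No batch or run is given in the labels. Whether m6A libraries were run in pairs, or exchanged between cell types, was not tested, and an exchange would change which cells the iPSC and SC calls below describe. Calls were also read for some genes expressed in few of the cell types, picked after their values were seen. Pou5f1, Nanog, Utf1 and Tex19.1 were called in ESC and iPSC and in neither NSC nor SC. Ccl17, Aldh1a1 and Inha were called in SC alone of the 4. Prss35 was called in SC and also in ESC, where it stood at 1.74 FPKM. The calls of these genes, other than that of Prss35 in ESC, lay in the libraries whose labelled cells expressed them. Picked genes need not be typical, and they were no test of an exchange. Dnmt3l was called in iPSC but not in ESC, which also expressed it. Of 629 coding transcripts at 10 FPKM or more in SC and under 1 in iPSC, 199 (31.6%) were called in iPSC. Of 196 such transcripts on the iPSC side, 17 (8.67%) were called in SC.

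The libraries that did not choose the classes were then read for transcripts called in only 1 of iPSC and SC. Over the 9339 transcripts the overall share called was 70.7% in ESC and 60.2% in NSC. Of transcripts called in SC but not iPSC and at 1 FPKM or more in the library looked at, 512 of 774 (66.1%, 95% interval 62.7 to 69.5) were called in ESC and 231 of 774 (29.8%, 26.6 to 33.2) in NSC. Of those called in iPSC but not SC, 602 of 1092 (55.1%, 52.1 to 58.1) were called in ESC and 675 of 1165 (57.9%, 55.0 to 60.8) in NSC, intervals that overlap. At 10 FPKM or more in all 4 libraries the SC-only transcripts were called in ESC and NSC at 76.6% and 24.3%, and the iPSC-only ones at 58.6% and 52.0%, so the order of ESC and NSC for iPSC-only transcripts turned. The split was sharper for TcSS, which was called in 18.5% of the 9339 transcripts in ESC and 12.8% in NSC. A TcSS call of SC but not iPSC was found in ESC at 54.0% of transcripts and in NSC at 8.20%, and a TcSS call of iPSC but not SC was found in ESC at 24.3% and in NSC at 53.1%. At 10 FPKM or more in all 4 libraries the first pair of TcSS values was 75.1% and 9.05%, and the second 44.9% and 52.5%. Over all transcripts at that level TcSS was called in 32.6% in ESC and 13.2% in NSC. Intervals here and below are exact binomial (Clopper-Pearson) intervals over transcripts; they cover counting error only, and transcripts of 1 gene are not independent.

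**Figure D3:**
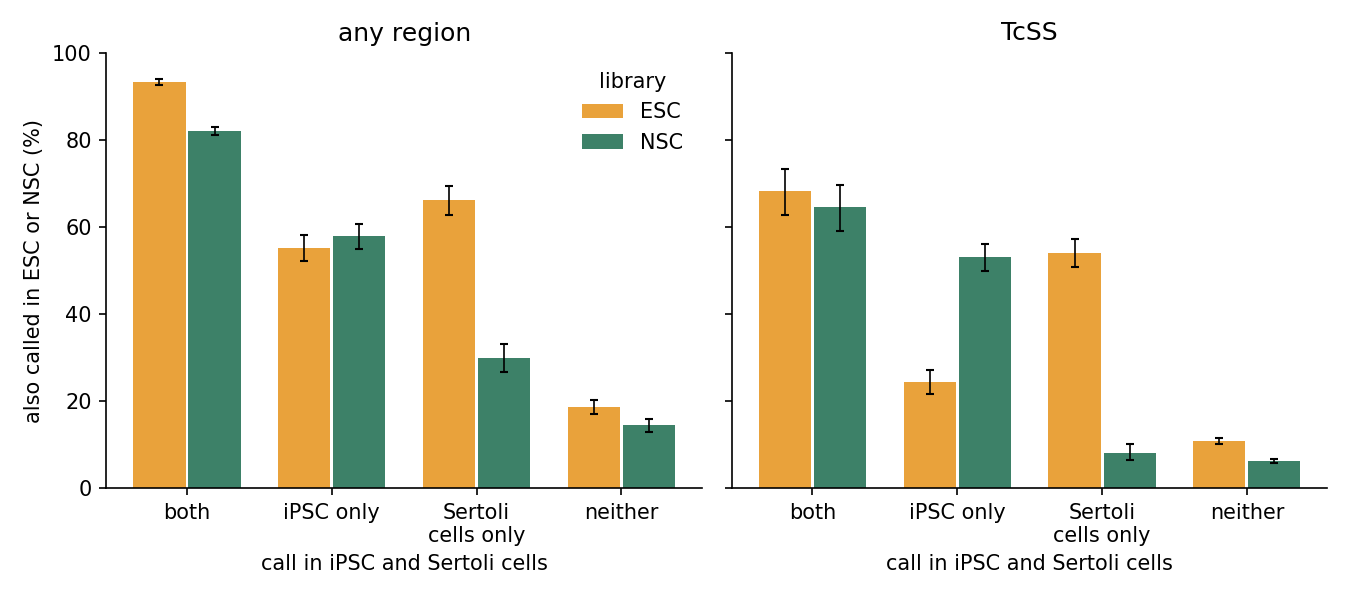
Bars give the percent of transcripts also called in embryonic (ESC) or neural (NSC) stem cells, grouped by whether they were called in both iPSC and Sertoli cells, in 1 of them or in neither, with exact 95% binomial intervals. TcSS calls of Sertoli cells alone reach 54.0% in ESC and 8.20% in NSC, and those of iPSC alone 24.3% and 53.1%.

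Most transcripts had the same overall status in both cell types. Of 10877 transcripts, 6444 were called in at least 1 region in both, 1237 (11.4%) in iPSC only, 839 (7.71%) in SC only and 2357 in neither. The share called was 70.6% in iPSC (95% interval 69.8 to 71.5) and 67.0% in SC (66.1 to 67.8). Of the iPSC calls 83.9% were shared with SC, and of the SC calls 88.5% with iPSC.

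The called regions differed more often than the overall status. Among the 6444 transcripts called in both, 1979 (30.7%) had the same set of regions and 503 (7.81%) had no region in common. iPSC had more called regions in 2354 (36.5%) and SC in 1332 (20.7%), and the mean number was 2.20 in iPSC and 1.98 in SC. A call on CDS, TsTS and 3' UTR together was the most frequent set in iPSC, at 1315 of these transcripts against 793 in SC. CDS with TsTS was the most frequent set in SC, at 1289 against 1033 in iPSC, followed by CDS alone at 1191 against 742.

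The 3' UTR showed the clearest difference between the iPSC and SC libraries. Over the 9339 transcripts at 1 FPKM or more in all 4 cell types it was called in 33.9% in iPSC and 21.4% in SC. ESC, at 26.5%, and NSC, at 27.3%, lay between them, so iPSC also stood above the other pluripotent library. Over the 10877 transcripts the values were as follows. The 3' UTR was called in 33.8% of transcripts in iPSC (32.9 to 34.7) and 21.4% in SC (20.7 to 22.2). There 1917 transcripts were called in both, 1755 in iPSC only and 414 in SC only. The excess of iPSC-only over SC-only calls was thus 4.24 to 1, against 1.55 to 1 in TsTS, 1.11 to 1 in CDS, 1.16 to 1 in the 5' UTR and 0.980 to 1 in TcSS. The direction in 3 of the regions turned with the minimum FPKM or the 2-fold limit. At 10 FPKM or more in both, CDS was called in iPSC only at 8.64% and in SC only at 11.9%, and the 5' UTR at 1.70% and 2.50%; both turned at 5 FPKM too. Within 2-fold in expression TcSS was called in iPSC only at 10.7% and in SC only at 7.69%. The 3' UTR and TsTS kept their direction in every such setting tried, at 14.6% to 17.8% against 2.20% to 3.996% in the 3' UTR. In narrower ranges TsTS turned. Where the lower FPKM value was 50 or more, TsTS was called in iPSC only at 10.9% and in SC only at 15.1%. At log2 differences under -3 its shares were 8.25% and 18.1%. Most of the 1755 transcripts with a 3' UTR call in iPSC only were not bare in SC: 999 carried a CDS call there, 975 a TsTS call, and 407 (23.2%) no call. In CDS, 3947 transcripts were called in both, 1164 in iPSC only and 1046 in SC only. In TsTS the counts were 3563, 1706 and 1101. TcSS calls were the least shared, with 355 in both, 1030 in iPSC only and 1051 in SC only, so that 25.6% of iPSC calls and 25.2% of SC calls in TcSS were shared.

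**Figure D4:**
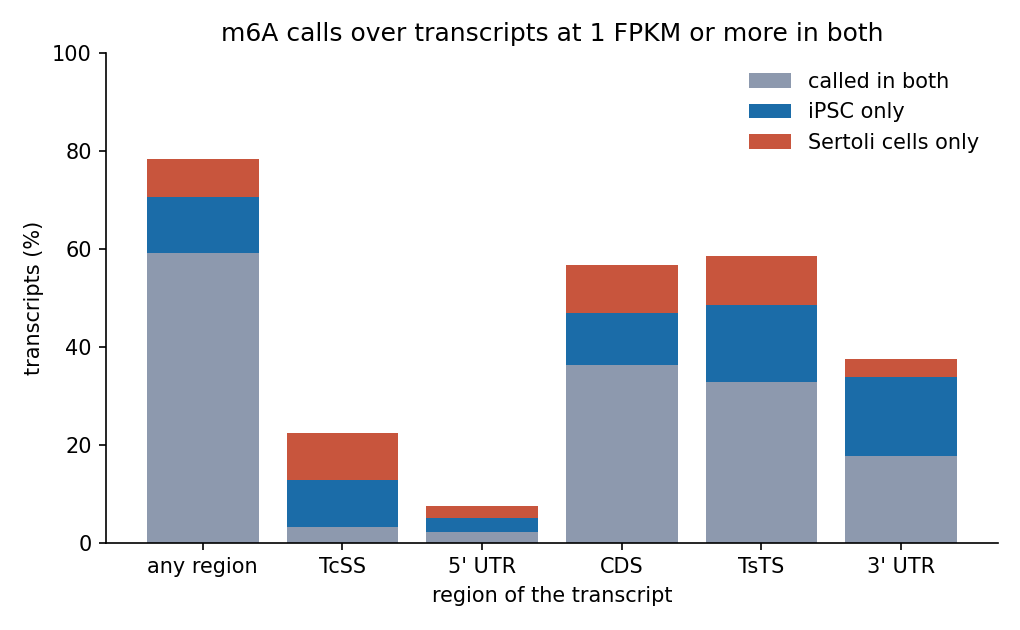
Bars give the percent of 10877 transcripts called in each region, split into calls in both cell types, in iPSC only and in Sertoli cells only. The 3' UTR has a large iPSC-only block (1755 transcripts) and a small Sertoli-only one (414), while in TcSS both single-library blocks exceed the shared one (355).

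Longer 3' UTRs were called more often in both cell types, and iPSC lay higher at every length. Of transcripts with a 3' UTR under 250 nt, 4.48% were called there in iPSC and 2.80% in SC. At 1000 to 2000 nt the shares were 45.5% and 29.96%, and at 2000 nt or more 56.1% and 33.2%. The difference also held at every expression level: with the lower of both FPKM values between 1 and 2 the 3' UTR was called in 31.5% in iPSC and 22.2% in SC, between 5 and 10 in 38.4% and 23.3%, and at 50 or more in 16.6% and 10.4%. CDS calls crossed over with level, at 54.5% in iPSC and 49.9% in SC between 2 and 5 FPKM and at 21.7% and 31.3% at 50 FPKM or more. TsTS calls crossed over too, at 54.2% and 43.8% between 2 and 5 FPKM and at 28.7% and 32.8% at 50 FPKM or more.

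Calls in 1 library only followed the difference in expression. Among 873 transcripts more than 8-fold lower in iPSC (log2 difference under -3) 4.58% were called in iPSC only and 14.5% in SC only. Among 214 transcripts with a log2 difference of 2 or more these shares were 22.9% and 2.34%. Between -2 and -1 they were 8.74% and 8.62%. The 3' UTR departed from this pattern: iPSC-only calls stayed above SC-only calls even below -3, at 10.4% and 9.28%, though the intervals overlap there, and between 0 and 1 they stood at 19.1% and 1.58%. How far a lower read depth over weakly expressed transcripts lowers the call rate was not tested, since the depth is unknown.

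**Figure D5:**
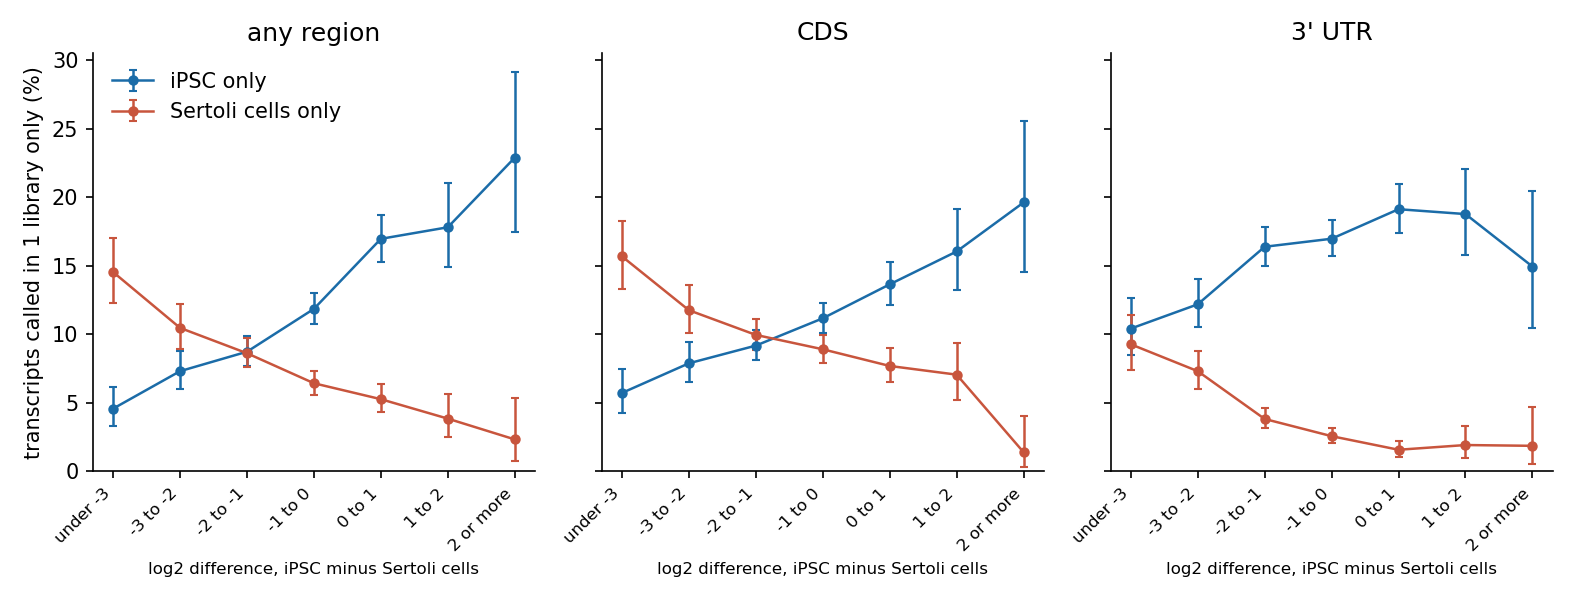
Points give the percent of transcripts called in iPSC only (blue) and in Sertoli cells only (red), by the log2 difference in expression, with exact 95% binomial intervals, for any region, CDS and the 3' UTR. The lines meet near the bin from -2 to -1 for any region and cross just above it for CDS, and in the 3' UTR the iPSC line lies above throughout.

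The transcripts named next were evenly expressed (within 2-fold), called in 1 cell type only and taken by the highest level, where ribosomal protein genes are frequent whatever their calls. In iPSC only these were Rpl35, Rps9, Rps10, Rps25, Rps27l, Mif, Sod1, Cox4i1, Cox5b, Atp5e, Psmb7 and Hspd1, each with a single called region. Cox4i1, a subunit of the last respiratory complex, stood at 536 FPKM in iPSC and 859 in SC and was called in TsTS in iPSC alone of the 4 cell types. Sod1, the cytosolic superoxide dismutase, stood at 839 and 721 FPKM and was also called in TsTS in iPSC alone. In SC only they included Eef1a1, Rps2, Rpl28, Rpl11, Rpl7a, Rpl19, Rpl4, Rpl6, Rpl7, Rpl29 and Ubb. Eef1a1, the elongation factor that brings tRNA to the ribosome, stood at 3927 and 6181 FPKM and was called in CDS and TsTS in SC alone of the 4. Of these transcripts called in SC and not iPSC, all but Eef1a1, Rps2 and Rpl6 were also called in ESC, and none of those named was called in NSC. Ribosomal protein and elongation factor genes have many near-identical processed copies in the mouse genome, so their reads and calls are uncertain.

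The 4 stretches below lie beside stop codons and are shown because they belong to transcripts called differently at even expression, with the same source and capitals as above. Rps25, Rpl29 and Rpl14 lie on chromosome 9 and Cox4i1 on chromosome 8. GGACT started 93 nt before the stop codon in Rps25, 28 nt before it in Cox4i1, 32 nt after its first base in Rpl29 and 54 nt after it in Rpl14.
Rps25: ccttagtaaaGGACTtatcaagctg
Cox4i1: ccgccaagtgGGACTatgacaagaa
Rpl29: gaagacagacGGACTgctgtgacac
Rpl14: tctcatgtgtGGACTctaagcttgt
The TsTS region was called in iPSC only in Rps25 and Cox4i1 and in SC only in Rpl29, at 790 and 796 FPKM in iPSC and SC for Rps25 and at 846 and 1488 for Rpl29. Rpl14, at 755 and 665 FPKM, was called in TsTS in iPSC and in CDS in SC. The same letters thus stood beside calls of either cell type in these stretches, which were picked because they hold them. Most of the evenly expressed transcripts named above as called in only iPSC or only SC did not hold them. Of those transcripts, Rps25, Cox4i1 and Rpl29 alone had GGACT within 100 nt of the stop codon.

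Other evenly expressed transcripts were called in both cell types with no region shared. Tuba1b, an alpha tubulin, was called in TsTS in iPSC and TcSS in SC at 1013 and 1237 FPKM. Ybx1, a mRNA-packaging protein, was called in the 3' UTR in iPSC and in TcSS and TsTS in SC at 405 and 678 FPKM. The splicing factor genes Hnrnpk and Srsf2 were called in TcSS in iPSC and TsTS in SC, Hnrnpk at 294 and 287 FPKM and Srsf2 at 269 and 170. Morf4l1, a chromatin reader, was called in TsTS in iPSC and CDS in SC. In the 3' UTR, Pkm, the pyruvate kinase gene, at 798 and 1194 FPKM, and Eef2, an elongation factor, at 735 and 1289, were called in iPSC only, and Hdgf and Cdc34 in SC only.

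Calls on the gene lists were read over transcripts at 1 FPKM or more in both, and against the 11.4% and 7.71% called in 1 library only. Cell cycle transcripts leaned to iPSC, with 14 of 30 called in both, 9 in iPSC only and none in SC only. Their genes stood higher in iPSC, at a median log2 difference of 1.56. Of all transcripts with log2 differences from 1 to 2, 17.8% were called in iPSC only and 3.85% in SC only. Mybl2, called in TcSS and CDS, Ccne1, called in the 3' UTR, and Cdt1, called in CDS, TsTS and 3' UTR, carried no call in SC, where they stood at 2.88, 6.599 and 4.82 FPKM. Pcna, the replication clamp, at 239 and 89.2 FPKM, was called in TcSS and CDS in iPSC and nowhere in SC, and Cdk1, at 54.5 and 32.8, in TcSS and TsTS in iPSC and nowhere in SC. Polycomb and DNA methylation transcripts were called in both in 18 of 25, in iPSC only in 3 and in SC only in none. The iPSC-only share was near that of all transcripts, and the 3 were Suz12 and isoforms of Uhrf1. In the 3' UTR 11 of the 25 were called in iPSC and 3 in SC, against 33.8% and 21.4% of all transcripts, and isoforms of 1 gene were counted separately. This list's genes also stood higher in iPSC, at a median log2 difference of 1.61.

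On the other side, 5 of 16 smooth muscle transcripts were called in SC only and none in iPSC only. Among the 5 was Tagln, an actin-binding protein, in CDS and TsTS at 27.7 FPKM in iPSC and 2166 in SC. Several of the 16 were isoforms of Tpm1, and the list's genes stood at a median log2 difference of -3.60. Of all transcripts with log2 differences under -3, 14.5% were called in SC only. Acta2 carried no call in either cell type. Of 7 Sertoli transcripts 4 were called in both and 3, Dmrt1, Trf and Wt1, in SC only; Wt1 was called in CDS and TsTS at 2.23 and 105 FPKM. All 20 junction transcripts were called in both. Of 5 pluripotency transcripts expressed in both, Klf2, Klf4 and Klf5 were called in both, Tfcp2l1 in iPSC only and Trim28 in neither. Of 25 m6A machinery transcripts 23 were called in both, Ythdc2 in SC only and Ythdf3 in neither. Mettl3 was called in TcSS in iPSC and CDS in SC, all 4 Hnrnpc transcripts in TcSS in iPSC and in CDS and TsTS in SC, and Alkbh5 in the 5' UTR, CDS and TsTS in both and in the 3' UTR in iPSC only. Trp53 was called in CDS in SC only, although it stood at 121 and 115 FPKM.

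Transcripts well expressed in 1 cell type and hardly in the other were read in the library of the cells that express them. Of 629 coding transcripts at 10 FPKM or more in SC and under 1 in iPSC, 519 (82.5%, 79.3 to 85.4) were called in SC, against 67.0% (65.5 to 68.5) of the 3936 at 10 or more in both. Of 196 such transcripts on the iPSC side, 130 (66.3%, 59.2 to 72.9) were called in iPSC, against 67.6% (66.1 to 69.1) of those at 10 or more in both. In CDS, 67.2% of the SC-restricted transcripts were called in SC against 42.4% of the shared ones, and 41.3% of the iPSC-restricted ones in iPSC against 39.1%. Their median level, 20.5 FPKM on the SC side and 20.8 on the iPSC side, lay below that of the shared transcripts, 48.7 and 26.1. Call rates were lower at high levels. Where the lower FPKM of all transcripts compared was 10 to 20, 72.2% were called in SC and 75.9% in iPSC, and at 50 or more 54.0% and 48.6%. Without matching for level, the call rate of restricted transcripts exceeded that of shared ones in SC, and in iPSC the intervals of both rates overlap.

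The letters near the stop codon went with the TsTS calls, and more so with those of iPSC. GGACT was searched on the coding strand within 100 nt of the stop codon in the 10472 coding transcripts (99.2%) that matched GENCODE M21 by RefSeq accession. It was present in 35.1% of transcripts with a TsTS call in both (33.5 to 36.7), 30.5% of those called in iPSC only (28.3 to 32.8), 19.6% of those called in SC only (17.3 to 22.1) and 16.4% of those called in neither (15.3 to 17.5). Over all 17721 matched coding transcripts of the table the share was 24.6%. Among transcripts within 2-fold in expression the 4 shares were 35.0%, 29.4%, 20.5% and 16.4%, and at 10 FPKM or more in both 35.5%, 30.8%, 18.3% and 15.8%. With the letters in reverse order, TCAGG, which have the same base composition, they were 24.1%, 20.3%, 23.1% and 20.2%. Transcripts called in TsTS in SC only were shorter, with a median of 2427 nt and a 3' UTR of 778 nt, than those called in iPSC only, with 3251 nt and 1068 nt; among 3' UTRs from 500 nt to under 2000 nt the GGACT shares were 33.9%, 31.1%, 20.2% and 14.4%. A match is a description of the letters and not a methylated site, and no match says nothing of other forms of the core.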

How the data were processed

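FPKM values and 0 or 1 m6A calls per RefSeq transcript were used as deposited, the units being named per the file headers. Per the submitters' processing notes, the tools included Cufflinks 2.0.2, TopHat2 2.0.4 and CASAVA, with the mouse build mm9. The sources used here give neither the caller of the m6A regions nor its threshold. Read depth is unknown, so no counting floor can be set for FPKM. Fragment counts were not used. Of 19776 transcripts 19550 were matched to gene symbols through the RefSeq gene table of GRCm38.p6 and then GENCODE M21, giving 15359 genes. For each gene 1 transcript was kept, the one whose FPKM averaged highest across the RNA libraries of all 4 cell types. Differences were taken as log2(FPKM + 1), with a gene called higher at 2-fold and at 1 FPKM or more in either library. A second scale divided out the median ratio over genes at 1 FPKM or more in both. m6A calls were compared over transcripts at 1 FPKM or more in both. Each cell type had 1 library per assay, so no test was made. Exact binomial intervals at 95% cover counting error over transcripts only. GGACT was searched in GENCODE M21 transcripts (GRCm38), and no coordinates of another build were used with the mm9 values. Named genes were the 3 markers, the 12 largest differences each way at 10 FPKM or more in the higher library, up to 4 members of each list, and the highest transcripts called in 1 library only within 2-fold; the other named genes were chosen after their values were seen, and some genes that the rule selects are not reported here. The gene lists and their members were chosen with earlier results of these data known. The calculations, tested on simulated data, used Python 3.11.15, pandas 2.3.3, numpy 2.4.6, scipy 1.17.1 and matplotlib 3.10.9. The alternatives were other pseudocounts, minimum values and folds, scaling, summed transcripts and genes at 0 left out.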

Additional observations from a re-analysis of the deposited data

How the results depend on the processing

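The count of genes higher in iPSC, 1650 as reported, was 764 with a pseudocount of 5, 1037 at 5 FPKM or more in either library, 3171 after scaling and 636 at 4-fold. The count higher in SC, 5980 as reported, was 3451 after scaling and 2915 at 4-fold. Scaling turned the sign of 4 list medians, to 0.69 for m6A writers, erasers and readers, 0.10 for glycolysis, 0.84 for imprinted genes and 0.64 for the microRNA pathway. The share called in iPSC only was 10.4% at 5 FPKM or more in both, 10.49% at 10 or more, 11.998% with one transcript a gene and 13.8% within 2-fold in expression. The share called in SC only was 8.42%, 9.86% and 6.00% at 5 FPKM, at 10 FPKM and within 2-fold. Of 93 named genes 89 kept their direction and their side of 2-fold after scaling, and 4 were then under 2-fold, Csf1r at -0.97, Fto at -0.50, Virma at -0.36 and Zc3h13 at -0.62. The set at 10 FPKM or more in all 4 libraries and the subsets of the GGACT search were chosen after seeing the data. The cause of these shifts was not tested beyond what each setting changes by construction. No paired analysis was possible because each cell type had 1 library per assay, which also left no replicate to leave out.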

Other observations

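Over the 9339 transcripts at 1 FPKM or more in all 4 cell types, iPSC and SC differed at 25.6% of transcripts in TsTS and at 20.2% in the 3' UTR, against 18.6% and 12.1% for ESC and SC, 22.4% and 16.9% for ESC and iPSC, 22.5% and 16.3% for iPSC and NSC, 29.0% and 19.96% for NSC and SC, and 29.9% and 20.1% for ESC and NSC. Of transcripts called in 1 library only, the median level was 9.40 FPKM in iPSC and 34.1 in SC for those called in SC only, and 7.72 and 10.0 for those called in iPSC only. Restricted transcripts were also called where they were hardly expressed: of the 629 at 10 FPKM or more in SC and under 1 in iPSC, 199 (31.6%) were called in iPSC, and of the 196 restricted to iPSC, 17 (8.67%) were called in SC.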
